A study of Mus musculus with 8 samples.

Results

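The genes described here are 10 genes that set or trigger the cell's decision to die: 3 that encode prosurvival BCL2 proteins (Bcl2, Bcl2l1 and Mcl1), 4 that encode BH3-only proteins (Bcl2l11, Bbc3, Pmaip1 and Bid), the effectors Bax and Bak1, and the death receptor gene Tnfrsf10b. They were taken by name, and each is represented by its brightest probe set, by the mean of all 8 arrays, among those annotated to that gene alone. Of the 10 genes, 9 were measured in this way, out of 18820 genes in all, and Bax was not analysed here. RNA came from white adipose tissue of male mice, with 1 mouse per array. The 4 Sel1l-/- mice descended from a cross of Sel1L-flox/flox animals with animals that express Cre from the adiponectin promoter, and the 4 wildtype (WT) mice served as controls. Both groups were C57BL/6 of mixed N and J substrain, and both ate the Research Diets high fat diet for 5 weeks. The adiponectin promoter is active in adipocytes, so the other cells of the tissue keep Sel1l. The fat depot, the age of the mice and whether the WT mice carried the floxed allele or Cre are not given in the sources used here.

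BCL2 family proteins meet at the outer mitochondrial membrane. The prosurvival members hold the effectors BAX and BAK in check, and BH3-only proteins bind the prosurvival members or the effectors and so free the effectors to perforate the membrane, after which cytochrome c activates caspases. The SEL1L protein is a partner of the ubiquitin ligase HRD1, and together they clear misfolded proteins from the endoplasmic reticulum (ER), and persistent ER stress is a known trigger of this death pathway: the transcription factors ATF4 and CHOP can induce BH3-only genes and, in human cells, the death receptor gene TNFRSF10B.

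In the 7 measured members with an entry in the RefSeq promoter table (GRCm38.p6), the windows from 250 bases before to 50 bases after each annotated start were searched for sequence elements of stress and FOXO transcription factors, on both strands. The letters searched were TGATGNAA, the core of the C/EBP-ATF response element bound by ATF4 and CHOP, TGACGTCA, the cAMP response element, TGACGTGG, the unfolded protein response element, CCAAT and CCACG with 9 bases between them, the ER stress response element, and GTAAACA, the FOXO element. None of the 12 windows of the 7 members held the first 4, which occur in 3.97%, 1.79%, 0.676% and 0.119% of all 32851 windows. With 12 windows, a count of 0 lies near these shares and is no result about the members. The FOXO letters stood in 2 of the 12 windows, 1 of Bbc3 and 1 of Bcl2l11, against 3.65% of all windows. Bcl2l11 and Bbc3 are known targets of FOXO3. Among 7 stress genes of the death pathways that passed the test, 6 had a window, and the C/EBP-ATF core was present in those of Trib3 and Chac1 and the cAMP response element in that of Ppp1r15a. These matches are a description of letters in short windows, not of bound sites, and no match overlapped another in the windows shown. The following windows are shown because they carry the matches in stress genes that rose and in members that did not pass the test. Capitals mark the matches, at bases 265 to 272 for Trib3, 58 to 65 for Chac1, 239 to 246 for Ppp1r15a, 84 to 90 for Bbc3 and 24 to 30 for Bcl2l11, counted from 1 at the 5′ end, and Bid is given as a member without a match.
Trib3 (chr2:152344011-152344310, minus strand): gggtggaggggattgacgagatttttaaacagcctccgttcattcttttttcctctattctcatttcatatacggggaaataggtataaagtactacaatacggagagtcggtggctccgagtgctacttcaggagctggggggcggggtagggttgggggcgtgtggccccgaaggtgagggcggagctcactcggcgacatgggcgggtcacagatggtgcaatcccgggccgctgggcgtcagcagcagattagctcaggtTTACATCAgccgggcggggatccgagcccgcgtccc
Chac1 (chr2:119350992-119351291, plus strand): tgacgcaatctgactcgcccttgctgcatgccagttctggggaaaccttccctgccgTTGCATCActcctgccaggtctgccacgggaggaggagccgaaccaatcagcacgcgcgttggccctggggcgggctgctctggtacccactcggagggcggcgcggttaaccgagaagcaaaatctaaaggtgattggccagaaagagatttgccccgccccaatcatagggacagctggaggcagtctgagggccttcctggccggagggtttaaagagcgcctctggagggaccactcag
Ppp1r15a (chr7:45526219-45526518, minus strand): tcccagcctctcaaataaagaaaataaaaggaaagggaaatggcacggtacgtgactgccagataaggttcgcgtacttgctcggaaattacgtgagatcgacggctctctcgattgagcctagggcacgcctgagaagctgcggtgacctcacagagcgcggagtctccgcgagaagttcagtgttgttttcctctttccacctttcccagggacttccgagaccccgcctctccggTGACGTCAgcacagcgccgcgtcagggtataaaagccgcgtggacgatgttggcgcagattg
Bbc3 (chr7:16310011-16310310, plus strand): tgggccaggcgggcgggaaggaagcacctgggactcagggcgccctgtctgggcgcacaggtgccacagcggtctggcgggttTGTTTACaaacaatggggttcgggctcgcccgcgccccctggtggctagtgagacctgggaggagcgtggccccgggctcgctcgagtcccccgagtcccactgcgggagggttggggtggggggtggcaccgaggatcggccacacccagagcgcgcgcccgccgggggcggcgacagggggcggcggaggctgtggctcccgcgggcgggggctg
Bcl2l11 (chr2:128125788-128126087, plus strand): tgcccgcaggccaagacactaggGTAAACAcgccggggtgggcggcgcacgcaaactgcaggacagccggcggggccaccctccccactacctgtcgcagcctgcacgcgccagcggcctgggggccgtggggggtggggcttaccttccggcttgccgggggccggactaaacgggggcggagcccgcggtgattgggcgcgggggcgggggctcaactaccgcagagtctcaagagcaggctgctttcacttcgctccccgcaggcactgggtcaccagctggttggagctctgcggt
Bid (chr6:120916775-120917074, minus strand): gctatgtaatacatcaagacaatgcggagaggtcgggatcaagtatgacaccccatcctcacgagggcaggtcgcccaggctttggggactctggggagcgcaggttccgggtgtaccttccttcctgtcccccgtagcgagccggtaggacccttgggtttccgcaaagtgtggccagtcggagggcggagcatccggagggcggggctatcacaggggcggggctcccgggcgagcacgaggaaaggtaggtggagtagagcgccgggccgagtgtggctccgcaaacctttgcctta

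Facts of the whole data set bear on what can be said of these genes. Sel1l itself fell to 9.78 ± 0.21 in Sel1l-/- mice, against 10.57 ± 0.07 in WT mice on the log2 scale (SD, n = 4 each; limma adjusted p = 0.0109), although which exons the probes cover is not given in the sources used here. The highest knockout value was that of Sel1l-/- mouse 4, at 10.07. Sel1l lost its call when a block was set for the letter or for the number in each mouse's code (differences of -0.98 and -0.80, limma adjusted p = 0.151 and 0.0813) and in a linear model without moderation (-0.79, adjusted p = 0.0540). Only letter F held both genotypes, so the letter block's difference compares Sel1l-/- mice 1 and 2 with WT mouse 4 alone. All 8 adipocyte markers lay above percentile 98.6 of the genes measured, and 4 of 6 measured epididymis markers lay below the lower quartile of all values. Summed over 12 macrophage markers, the linear level was 16376 to 28611 in Sel1l-/- mice and 14202 to 22615 in WT mice, with 11 of the 12 differences positive and none past the threshold. The negative one, Mertk at -0.35, had the smallest p of the 12 (limma adjusted p = 0.170). Over 8 endothelial markers the sums were 7255 to 9060 and 10240.5 to 11687, without overlap, all 8 differences were negative and 1, Pecam1, passed. The adipocyte marker sums were 40632 to 48967 in Sel1l-/- mice and 48857 to 53993 in WT mice, with all 8 differences negative and none past the threshold. The lowest of these was Adipoq, the adiponectin gene, at -0.56 without overlap between the groups (limma adjusted p = 0.0753). The lymphocyte sums were 722 to 1212 and 966 to 1476 with 1 of 10 genes lower, the neutrophil sums 227 to 310 and 260 to 610 with none of 7 past the threshold, and the progenitor and fibroblast sums 14621 to 17815 and 16070 to 19069 with none of 8. The part of these cell types in the members' values was tested only for the macrophage markers, as a covariate. In bulk tissue, fewer cells of a type and less RNA per cell cannot be told apart.

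None of the 9 measured death genes passed the test between Sel1l-/- and WT adipose tissue. Limma called 0 of 9 at an adjusted p under 0.05, where 1.72% of all genes were called, and 0 of 9 had an unadjusted p under 0.05, where 15% of all genes did. The groups overlapped on all 9, while 10.3% of all genes had groups without overlap. With 9 genes, a count of 0 lies near what each of these shares, 1.72%, 15% and 10.3%, would give. None of the 3 counts is a result about these genes as a set. Their log2 differences, Sel1l-/- minus WT, ran from -0.26 to 0.22, 4 of 9 were positive where 48.8% of all genes were, and the median was -0.02, beside -0.0037 over all genes. Moderation other than the default and a plain linear model without moderation also called none. The 95% intervals below hold for the fit without blocks only. With the mouse code letter as a block, the differences of Bcl2 (0.521), Bcl2l11 (-0.519), Bbc3 (0.374) and Mcl1 (-0.288) lay outside them. Those differences compare Sel1l-/- mice 1 and 2 with WT mouse 4 alone, the mice of letter F. The intervals also describe RNA of the whole tissue, in which other cells keep Sel1l, and set no bound on a change within adipocytes alone.

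**Figure D1:**
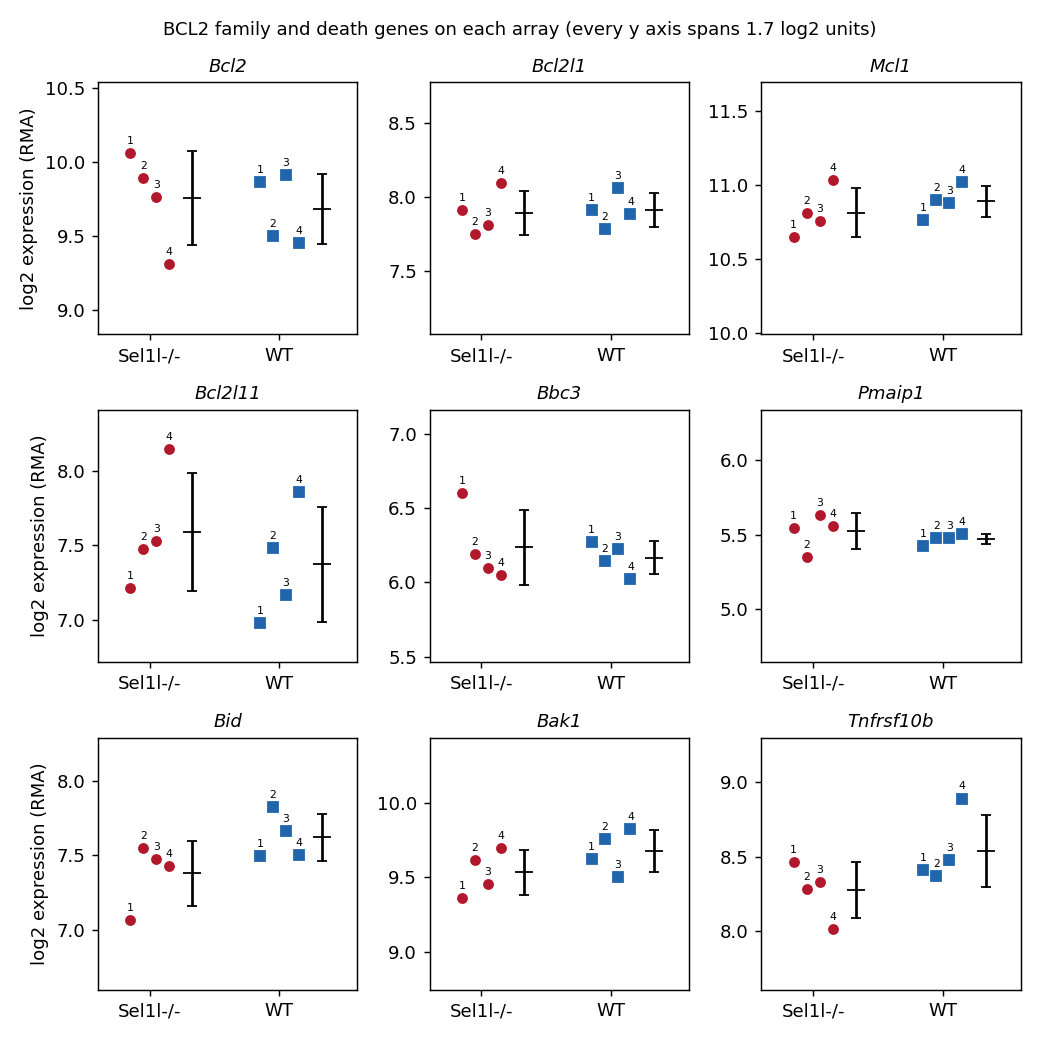
Each panel plots the log2 RMA expression (y axis) of 1 gene on the 4 Sel1l-/- arrays (circles) and the 4 WT arrays (squares), with mouse numbers, and the mean ± SD (black). The groups overlap in every panel, and Bcl2l11 spreads most among the mice of each group.

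Among the prosurvival genes, Mcl1, whose short-lived protein binds BIM, NOXA and BAK, lay at percentile 94.8 of the signals of all genes. It read 10.65, 10.81, 10.76 and 11.04 in Sel1l-/- mice 1 to 4, against 10.76, 10.90, 10.88 and 11.02 in WT mice 1 to 4. Sel1l-/- mouse 4 was the highest and Sel1l-/- mouse 1 the lowest of all 8, so the knockout values enclosed those of WT. The difference was -0.07 (standard error 0.09, 95% interval -0.29 to 0.14, limma adjusted p = 0.772).

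Bcl2, the founding prosurvival gene, read 10.06, 9.89, 9.77 and 9.32 in Sel1l-/- mice, against 9.87, 9.50, 9.91 and 9.45 in WT mice. Here too the knockout mice held both the highest value (mouse 1) and the lowest (mouse 4). The difference was 0.07 (standard error 0.17, 95% interval -0.32 to 0.47, limma adjusted p = 0.885). A second, dimmer probe set of Bcl2, with a mean of 4.72 near the lower quartile of 4.35, differed by -0.03.

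Bcl2l1, which encodes BCL-XL, read 7.91, 7.75, 7.81 and 8.10 in Sel1l-/- mice and 7.91, 7.78, 8.06 and 7.89 in WT mice. Mice number 1 of both groups were equal to 2 decimals. The difference of the means was -0.02 (standard error 0.09, 95% interval -0.23 to 0.19, limma adjusted p = 0.955), the smallest of the 9. A change of more than 1.14-fold up or to less than 0.855-fold down lies outside that interval.

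The BH3-only gene Bcl2l11 encodes BIM, which binds all prosurvival BCL2 proteins and can activate BAX and BAK. It read 7.21, 7.48, 7.53 and 8.15 in Sel1l-/- mice, against 6.98, 7.48, 7.16 and 7.86 in WT mice. Within each group the values spread most of the 9 genes, with an SD of 0.40 in Sel1l-/- mice and 0.39 in WT mice (n = 4 each), and the 8 mice together spanned 1.17 log2 units. The difference was 0.22 (standard error 0.24, 95% interval -0.32 to 0.76, limma adjusted p = 0.730), so that anything from a 0.802-fold to a 1.69-fold level was within the interval. With its spread in this fit, which has no replicate block, Bcl2l11 would have needed a 2.27-fold difference to pass the threshold, the most of the 9. The same-numbered pairs differed by 0.23, -0.01, 0.37 and 0.29, and with the replicate number as a block the standard error was 0.077 and the limma adjusted p 0.170. The labels do not say that mice of the same number belong together, here and for the genes below.

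Its values followed the macrophage markers from mouse to mouse. In WT mice, numbers 1 and 3 had marker sums of 14254 and 14202 and the lower Bcl2l11 values, and numbers 2 and 4 had sums of 20942 and 22615 and the higher ones. In Sel1l-/- mice, number 1 had the lowest sum, 16376, and the lowest Bcl2l11, number 4 had the highest of both, 28611 and 8.15, and numbers 2 and 3, with sums of 21085 and 20197, lay between. Bcl2 ran the other way: Sel1l-/- mouse 4, with the highest sum, was lowest on Bcl2, and WT mice 2 and 4 lay below WT mice 1 and 3. These 2 genes were picked for this description after their values were seen. The adipocyte marker sums varied over the same mice. They were 53156, 50123, 53993 and 48857 in WT mice 1 to 4, and 48967, 47062, 48625 and 40632 in Sel1l-/- mice 1 to 4. WT mice 2 and 4 thus had the lower adipocyte sums of their group, and Sel1l-/- mouse 4 the lowest of all. The adipocyte markers were not tested as a covariate. With the mean of the macrophage markers as a covariate, the Bcl2l11 difference was -0.10 (limma adjusted p = 0.650), opposite in sign to that without it. That of Bcl2 was 0.30 (limma adjusted p = 0.0756) in the same fit. The covariate also moved Bak1 to -0.26, against -0.14 without it (limma adjusted p = 0.0685), Mcl1 to -0.18, against -0.07 (limma adjusted p = 0.207), and Bbc3 to 0.20, against 0.07 (limma adjusted p = 0.326). None of the 9 passed the threshold in that fit.

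**Figure D2:**
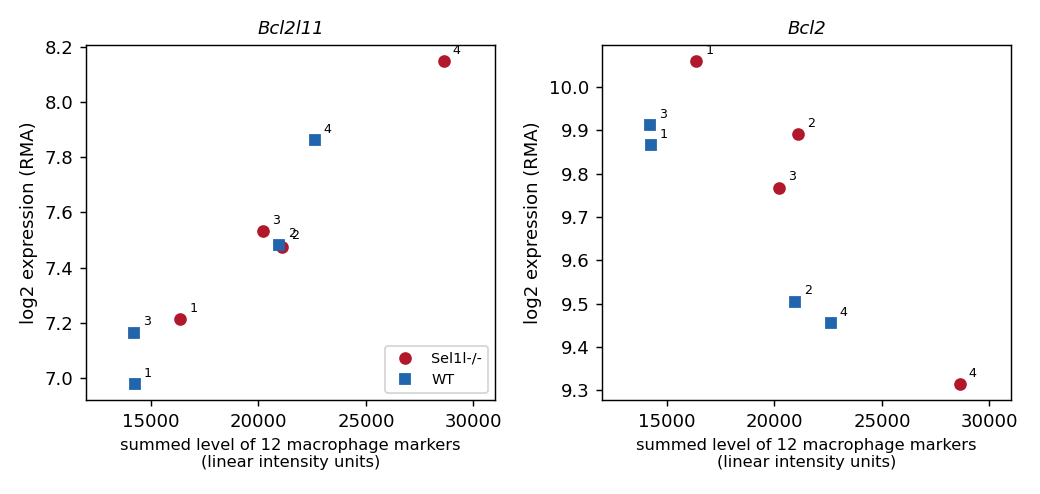
Log2 RMA expression (y axis) of Bcl2l11 (left) and Bcl2 (right) is plotted against the summed linear level of 12 macrophage markers (x axis) for each Sel1l-/- mouse (circles) and WT mouse (squares). Sel1l-/- mouse 4, at a sum of 28611, is highest on Bcl2l11 and lowest on Bcl2.

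Bbc3, which encodes PUMA, a BH3-only protein induced by p53 and by stress, read 6.60, 6.19, 6.10 and 6.05 in Sel1l-/- mice, against 6.28, 6.14, 6.23 and 6.02 in WT mice. Only Sel1l-/- mouse 1 stood above the WT range. The difference was 0.07 (standard error 0.12, 95% interval -0.21 to 0.35, limma adjusted p = 0.848). Without that mouse it was -0.05.

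Pmaip1, which encodes NOXA, a BH3-only protein that binds MCL1, had a dim probe set, at percentile 36.3. It read 5.55, 5.35, 5.63 and 5.56 in Sel1l-/- mice, against 5.43, 5.48, 5.48 and 5.51 in WT mice. Sel1l-/- mice 1, 3 and 4 lay above all WT mice and Sel1l-/- mouse 2 lay below them. The difference was 0.05 (standard error 0.07, 95% interval -0.11 to 0.21, limma adjusted p = 0.799). An increase beyond 1.16-fold lies outside that interval, the narrowest of the 9. RMA compresses differences of dim probe sets, so the interval holds for this probe set's values only.

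Bid, whose protein links death receptors to mitochondria once caspase 8 has cleaved it, was lower on average in Sel1l-/- mice, but not past the threshold. It read 7.06, 7.55, 7.47 and 7.43 in Sel1l-/- mice, against 7.49, 7.83, 7.66 and 7.50 in WT mice. The knockout values of mice 1, 3 and 4 lay below all WT values. The difference was -0.24 (standard error 0.12, 95% interval -0.52 to 0.03, limma adjusted p = 0.405), and in all 4 same-numbered pairs the Sel1l-/- mouse was lower, by 0.43, 0.28, 0.19 and 0.07. No label pairs these mice, so the agreement of the pairs is a description only. With the replicate number as a block the standard error of Bid was 0.074 and the limma adjusted p 0.129. Without Sel1l-/- mouse 1 the difference was -0.14.

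The effector Bak1, which encodes a pore-forming protein of the mitochondrial membrane, read 9.36, 9.62, 9.46 and 9.70 in Sel1l-/- mice, against 9.63, 9.76, 9.50 and 9.82 in WT mice. The difference was -0.14 (standard error 0.10, 95% interval -0.37 to 0.08, limma adjusted p = 0.565), again with the Sel1l-/- mouse lower in all 4 same-numbered pairs. A second, dimmer probe set of Bak1 read 5.86, 5.73, 5.73 and 5.62 in Sel1l-/- mice and 6.10, 6.08, 6.27 and 5.93 in WT mice, without overlap. Its difference was -0.36 (standard error 0.09), with a limma adjusted p of 0.130 over all probe sets. Averaging both probe sets gave a Bak1 difference of -0.25 that passed the threshold (limma adjusted p = 0.0481), the 1 setting in which any of the 9 genes did. The probe sets differ in brightness and in the size of the difference, and which exons each covers is not given in the sources used here.

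Tnfrsf10b encodes the mouse receptor of the death ligand TRAIL, the counterpart of human DR5. It read 8.46, 8.28, 8.33 and 8.01 in Sel1l-/- mice, against 8.41, 8.37, 8.48 and 8.89 in WT mice. Sel1l-/- mice 2, 3 and 4 lay below all WT mice, and Sel1l-/- mouse 1 lay within their range. The difference was -0.26 (standard error 0.14, 95% interval -0.57 to 0.04, limma adjusted p = 0.420). An increase beyond 1.03-fold lies outside the interval. Much of the difference came from the mice numbered 4, which differed by -0.88, while the other 3 same-numbered pairs differed by 0.06, -0.09 and -0.15. It was -0.15 without WT mouse 4 and -0.18 without Sel1l-/- mouse 4.

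**Figure D3:**
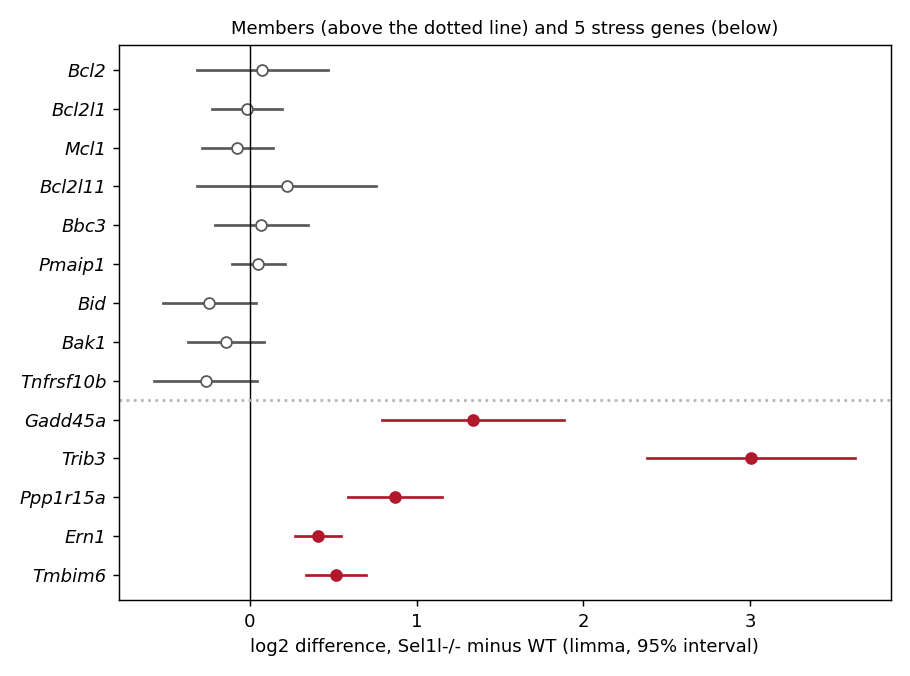
Points give the log2 difference, Sel1l-/- minus WT (x axis), of each of the 9 genes and of 5 stress genes, and lines the 95% interval of the limma fit. The intervals of all 9 genes above the dotted line include 0, and the filled points below it, Gadd45a, Trib3, Ppp1r15a, Ern1 and Tmbim6, passed the threshold.

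In the labels each mouse has a code with a letter and a number, whose meaning is not given in the sources used here. Letter F alone held both genotypes, with Sel1l-/- mice 1 and 2 and WT mouse 4. Within it, the difference of Bcl2l11 was -0.52 and that of Bcl2 0.52, while those of Bid, Bak1 and Tnfrsf10b were -0.20, -0.33 and -0.52. These equal the differences with the letter as a block, to which the other letters, of 1 genotype each, add nothing. They are no second result. Within the numbers 5, 7 and 9, Bcl2l11 differed by 0.11, 0.20 and 0.31, Bid by -0.02, -0.58 and -0.11, Tnfrsf10b by -0.32, -0.13 and -0.19, and Bak1 by -0.27, -0.23 and 0.12. Differences of the other 5 genes within letter F or a number ran from -0.31 to 0.37, apart from Bcl2 within F. Bcl2l11 was thus positive within each number and negative within letter F, and Mcl1, Bid and Tnfrsf10b were negative in all 4.

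Genes around these 9 were examined in 7 lists, which held 99 genes, 85 of them measured. In all 7 rose and none fell, where 1.04% of all genes rose. The calls lay in 2 lists, stress factors of the ER and p53 targets. The other 5 lists held 8 to 14 measured genes each, where a count of 0 calls lies near the background of 1.72% and is no result about them. Of the other BCL2 family genes, 0 of 12 measured passed, the median difference was -0.05 and the range -0.19 to 0.12. Bik, a BH3-only gene, had the smallest p, with 5.71 ± 0.15 in Sel1l-/- mice and 5.89 ± 0.10 in WT mice (SD, n = 4 each; limma adjusted p = 0.390), and Bcl2l15 differed by -0.13 at a level below the lower quartile.

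Of the caspases, apoptosome components and their inhibitors, 0 of 14 measured passed and the median was 0.00. Dffb, the nuclease that cuts DNA in apoptosis, had 5.79 ± 0.13 in Sel1l-/- mice and 5.97 ± 0.09 in WT mice (SD, n = 4 each; limma adjusted p = 0.355). Birc6, a large inhibitor of apoptosis, had 10.52 ± 0.12 in Sel1l-/- mice and 10.36 ± 0.08 in WT mice (SD, n = 4 each; limma adjusted p = 0.387).

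Of the death receptors, ligands and adapters, 0 of 13 measured passed, with a median of -0.06. Fas, the receptor of FAS ligand, read 8.24, 8.39, 8.50 and 8.16 in Sel1l-/- mice, against 8.51, 8.39, 8.62 and 8.73 in WT mice, a difference of -0.24 (limma adjusted p = 0.30). Cflar, which encodes the caspase 8 inhibitor FLIP, differed by -0.14 without overlap between the groups (limma adjusted p = 0.329). Necroptosis and pyroptosis genes gave 0 of 10 past the threshold and a median of -0.01, with Mlkl, the pore former of necroptosis, at -0.21 (limma adjusted p = 0.454) and Nlrp3, an inflammasome sensor, at 0.26 (limma adjusted p = 0.459). Of the genes that govern the turnover of MCL1 or the release of BIM, 0 of 8 passed, with a median of 0.01. Among these, Usp9x, a deubiquitinase that stabilizes MCL1, had the smallest p, at a difference of 0.18 without overlap (limma adjusted p = 0.148), and Dynll1, a dynein light chain that binds BIM, differed by -0.08 (limma adjusted p = 0.647).

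Of the ER stress factors upstream of death genes, 6 of 13 measured rose and none fell, with a median difference of 0.46. This list overlaps genes already known to respond in these samples, so its count is not independent evidence. Trib3, a pseudokinase induced by ATF4 and CHOP, read 10.12, 9.28, 9.58 and 8.58 in Sel1l-/- mice, against 6.38, 6.35, 6.50 and 6.32 in WT mice, the largest difference of the 85 genes (limma adjusted p = 0.00334). Ppp1r15a, which restores translation after stress, read 8.49, 8.08, 8.29 and 7.88 in Sel1l-/- mice and 7.37, 7.21, 7.39 and 7.29 in WT mice. Ern1, which encodes the ER stress sensor IRE1, rose 1.33-fold (limma adjusted p = 0.0190).

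Tmbim6 encodes BAX inhibitor 1, an ER membrane protein that protects against cell death. It rose 1.43-fold, with 12.46, 12.35, 12.41 and 12.13 in Sel1l-/- mice against 11.79, 11.79, 11.87 and 11.85 in WT mice (95% interval of the log2 difference 0.33 to 0.69, limma adjusted p = 0.0209). Atf4 rose 1.65-fold (limma adjusted p = 0.0231) and Chac1, a glutathione-degrading target of ATF4, 1.88-fold (limma adjusted p = 0.0404). Sel1l-/- mouse 4 was the lowest of the 4 knockout mice on Trib3, Ppp1r15a, Ern1, Tmbim6 and Atf4, while Sel1l-/- mouse 2 was the lowest on Chac1, at 8.48, against 8.52 in mouse 4. Mouse 4 also had the most Sel1l of the knockouts, the lowest adipocyte marker sum (40632) and the highest macrophage marker sum (28611). The part of Sel1l or of the adipocyte markers in these values was not tested, and with the macrophage covariate all 6 stress factors remained past the threshold. Ddit3, which encodes CHOP, was not analysed here.

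Of p53 and its targets, 1 of 15 measured genes rose and none fell, with a median of 0.14. The one that rose was Gadd45a, a growth arrest gene that responds to DNA damage and other stress. It read 9.20, 8.64, 8.75 and 7.90 in Sel1l-/- mice, against 7.35, 7.06, 7.30 and 7.43 in WT mice, a 2.53-fold difference (limma adjusted p = 0.0337). Every Sel1l-/- mouse lay above every WT mouse, and mouse 4 was again the lowest of the knockouts. Cdkn1a and Mdm2, 2 canonical p53 targets picked after their values were seen, differed by 0.36 and 0.27 (limma adjusted p = 0.586 and 0.278). After Gadd45a, the largest positive differences were those of Sesn2 at 0.48 and Trp53inp1 at 0.41 (limma adjusted p = 0.336 and 0.275). Of the 15 genes, 11 differences were positive and 4 negative. Among the negative ones were Perp at -0.24, Phlda3 at -0.23 and Ei24 at -0.22, with limma adjusted p of 0.768, 0.486 and 0.264, and the groups did not overlap on Ei24.

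**Figure D4:**
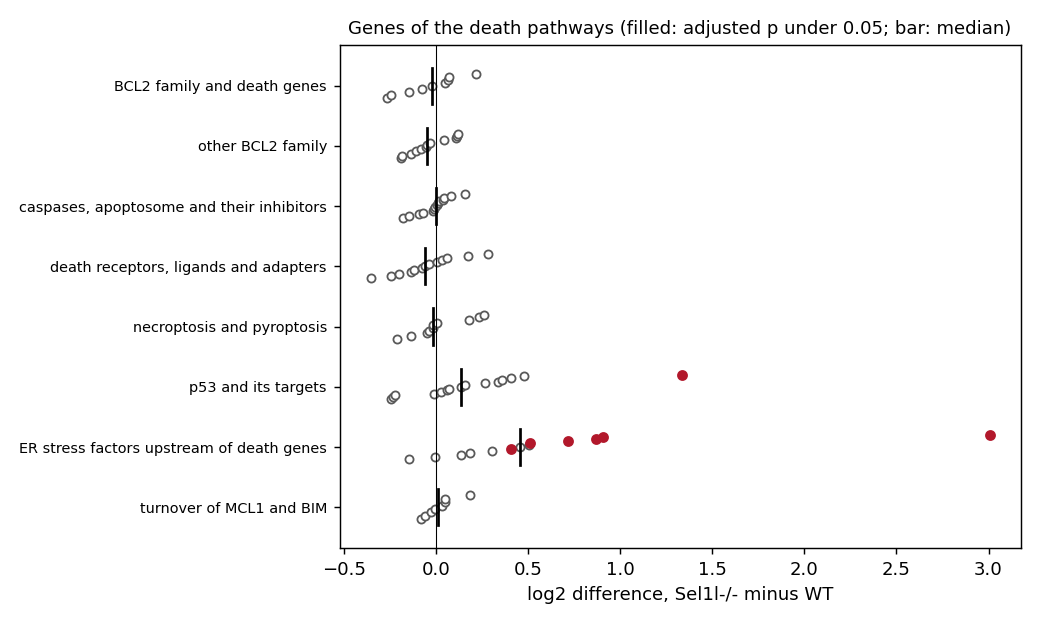
Each point is the log2 difference, Sel1l-/- minus WT (x axis), of 1 gene in the list named at the left, filled where the adjusted p was under 0.05, and the bar is the list's median. The filled points are the 7 genes that rose, 6 of them ER stress factors and 1 a p53 target, and the 9 death genes in the top line have none.

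Several calls of the stress genes lay near the threshold, while their differences kept their sign in every alternative. With 1 mouse left out at a time, the difference ran from 0.39 to 0.45 for Ern1, 0.47 to 0.58 for Tmbim6, 0.67 to 0.81 for Atf4 and 1.15 to 1.58 for Gadd45a, with no overlap between the groups in all 8 mice, and each such fit has fewer residual degrees of freedom. In these fits, Ern1 and Tmbim6 lost the call without any of Sel1l-/- 1 to 3 or WT 1 to 3 (limma adjusted p up to 0.0711 and 0.0773). Chac1 lost it without Sel1l-/- 1, 2 or 3 or WT 1, 2 or 4 (up to 0.114) and with the arrays centred on their medians (0.0511), and Atf4 without Sel1l-/- 1, 2 or 3 or WT 2 or 3 (up to 0.0818). Gadd45a lost it without any mouse but Sel1l-/- 4 (up to 0.111), and Ppp1r15a without Sel1l-/- 3, WT 1 or WT 2 (up to 0.0561). Trib3 passed in all 8 such fits (limma adjusted p up to 0.0202). All 7 lost it with the letter or the number of the code as a block, with differences for Trib3 of 3.39 and 3.03 and for Gadd45a of 1.49 and 1.40. In the same 2 fits Ern1 differed by 0.29 and 0.43, against 0.41 as reported, and Chac1 by 1.20 and 0.92, against 0.91. The letter block's differences compare Sel1l-/- mice 1 and 2 with WT mouse 4 only.

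**Figure D5:**
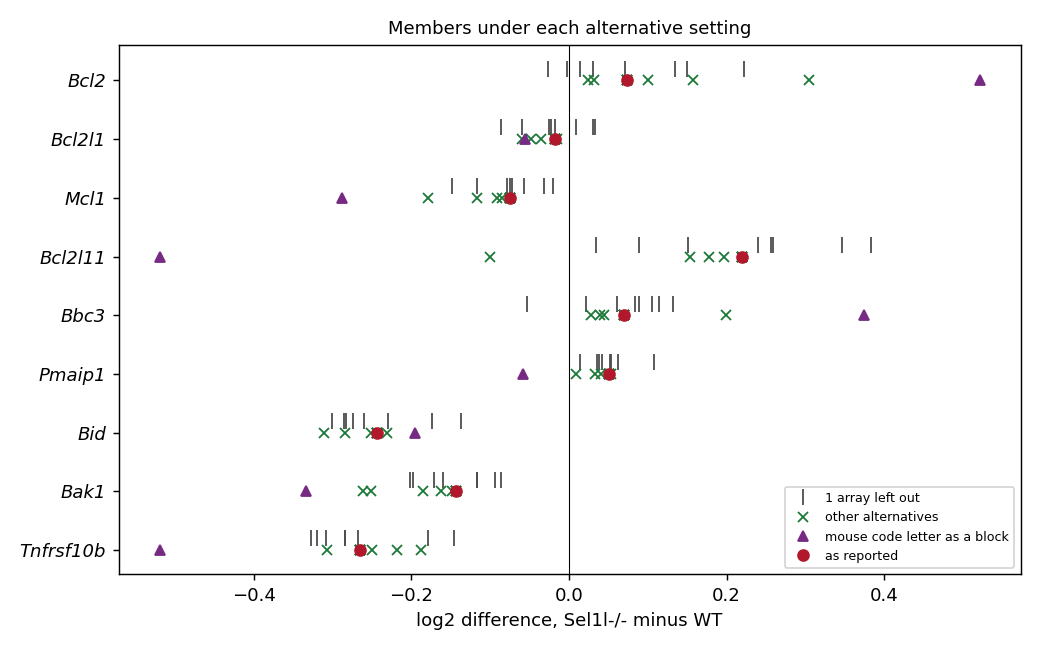
For each of the 9 genes the log2 difference, Sel1l-/- minus WT (x axis), is shown as reported (circle), with 1 array left out (bars), with the mouse code letter as a block (triangle) and under the other alternatives (crosses). Mcl1, Bid, Bak1 and Tnfrsf10b stay below 0 throughout, and Bcl2, Bcl2l1, Bcl2l11, Bbc3 and Pmaip1 cross 0.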

How the data were processed

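Whole-transcript cDNA was labelled with biotin and hybridised to 1-colour arrays, 1 per mouse, per the labels' protocols. The deposited values are log2 intensities. RMA (background correction, quantile normalization and probe set summary) is named per the submitters' processing notes, with no version. The log2 scale is inferred from a range of 1.72 to 13.9. Quantile normalization hides a change shared by most genes. No depth applies to arrays, and their number limits the precision.

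Probe sets were named through the supplied platform annotation: of 35556, 21218 had 1 gene, 1881 several and 12457 none, and no symbol changed on a match to RefSeq (21185 matched). The brightest single-gene probe set stood for each of 18820 genes. Sel1l-/- was compared with WT in limma 3.58.1 (R 4.3.3; lmFit, eBayes), two-sided, at a Benjamini-Hochberg adjusted p under 0.05 across all genes. The fitting code was run on simulated data with independent noise on each array. Such data hold no deviations shared between arrays and no mouse codes, so they do not test the fits on these points. Figures used Python 3.11.15 and matplotlib 3.10.9.

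The genes and lists were chosen with earlier results of these data known. Each list contributed its 4 genes of smallest p at most among those that passed, or the 2 of smallest p where none did. Atf4, Chac1, Pecam1, Adipoq, Mertk, Cdkn1a, Mdm2, Sesn2, Trp53inp1, Perp, Phlda3 and Ei24 were added after their values were seen. Alternatives were centring, blocks, a filter on dim genes, other moderation, array weights, averaged probe sets, a macrophage covariate and leaving out each array. Mice that share a number in the titles deviated from their groups with correlations of 0.518, 0.107, 0.363 and 0.524, so these numbers were tried as pairs, on the data alone. Mice of different numbers correlated at up to 0.328.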

Additional observations from a re-analysis of the deposited data

Results flagged for a closer look

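In 2 of 54 sets of 4 arrays (27 genes in both groups), 1 array stood far from the other 3, where chance marks about 1 in 20 sets. Dffb read 5.83 in WT mouse 2, against at least 6.00 in the other WT mice. Cflar read 8.87 in Sel1l-/- mouse 4, against at least 9.02 in the other Sel1l-/- mice. Neither lies among the 9 death genes.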

How the results depend on the processing

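Of the 9 death genes, 0 passed the threshold in 17 of 18 alternatives, and 1 (Bak1) with a gene's probe sets averaged. Signs turned for Bcl2l11 with the letter block (-0.52) and the macrophage covariate (-0.10), and for Pmaip1 with the letter block (-0.058). With 1 array left out, differences ran from -0.027 to 0.22 for Bcl2, -0.086 to 0.033 for Bcl2l1 and -0.053 to 0.13 for Bbc3. The letter block also turned Bik (0.017), Bcl2l15 (0.14) and Nlrp3 (-0.16). Its differences come from letter F alone, with 1 WT mouse. The 324 genes past the threshold became 725 with the replicate block, 20 with the mouse code letter and 11 with its number as a block, 566 with array weights, 124 without moderation, 590 with the macrophage covariate and 100 to 336 with 1 array left out. With the arrays centred on their medians, 119 rose and 154 fell, against 195 and 129 as deposited. The medians were 6.10 to 6.14 in Sel1l-/- mice and 6.05 to 6.08 in WT mice, without overlap. Centring lowered every difference by the mean shift of 0.042. It left Bcl2 at 0.032, Bbc3 at 0.027, Pmaip1 at 0.0086 and Bcl2l11 at 0.18, and moved the negative differences further from 0. The 7 pathway genes became 0 with either mouse code block, 2 without moderation and 1 to 8 with 1 array left out. The replicate block called 8 pathway genes and changed no call among the 9 death genes. Leaving out 1 array or adding a block also leaves fewer residual degrees of freedom, and the cause of other shifts was not tested. Signal limits Bcl2l15, which lay below the lower quartile.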
